A study of Mus musculus with 6 samples.

Results

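The insulin and insulin-like growth factor (IGF) receptors, the ligand Igf1, and the docking and adaptor genes of the IRS, GRB and GAB families were examined in the microglial cell line BV2 (mouse, immortalized), with and without sTREM-1. The set was defined by gene symbol, with earlier results of these data known, and all 10 symbols (Igf1, Igf1r, Insr, Igf2r, Irs1, Irs2, Grb10, Gab1, Gab2 and Gab3) were found among the 46095 symbols of the count table. The CON group held 3 libraries of untreated BV2 cells, and the sTREM-1 group held 3 libraries of BV2 cells given recombinant sTREM-1, a soluble form of a myeloid surface receptor, at 1 μg/mL for 6 h. All cells were 1 cell line grown in medium with 10% fetal bovine serum, which itself supplies growth factors, and the libraries were numbered 1 to 3 in each group. The cells were seeded in the wells of a culture plate, but whether each library came from a separate culture was not stated, so the p-values below measure the spread between these libraries, which may be technical.

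IGF1 and insulin bind the receptor tyrosine kinases IGF1R and INSR at the cell surface, which can also pair with each other as hybrids. The active receptors phosphorylate IRS proteins, which dock the regulatory subunit of PI3K and so connect the receptor to AKT, while GAB proteins serve as docking platforms below many cytokine and growth factor receptors and GRB10 binds the receptors and dampens their signal. IGF2R has no kinase and carries mannose 6-phosphate tagged hydrolases to lysosomes and clears IGF2. Microglia and macrophages are known as a source of IGF1 in the brain.

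Totals ran from 40070633 to 45877107 counts per library. All 10 genes passed the filter on low counts together with 14120 genes in all, but Irs1 and Grb10 did so with 10 to 36 counts per library. Of 12 microglia and macrophage markers, 11 passed the filter and Aif1 was listed at 0 in all 6 libraries. Cx3cr1, P2ry12 and Tmem119 stood at 0.668 to 1.77 CPM (counts relative to the TMM-adjusted depth of the library) on average in either group, while Csf1r, Itgam, Ptprc, Cd68 and Adgre1 stood at 346 to 753 CPM. The summed level of the 12 markers was 2930 to 2970 CPM in the CON libraries and 3240 to 3300 CPM in the sTREM-1 libraries, and 5 of them were higher by the test given below. Its part in the results below was not tested. In bulk RNA, a change in the share of cells that express a gene and a change in the RNA per cell cannot be told apart. The 5 neuron and 4 astrocyte markers each summed to at most 0.479 CPM in any library, with Rbfox3, Aqp4 and Aldh1l1 at 0. The 4 oligodendrocyte markers summed to 7.29 to 7.91 CPM in the CON and 5.58 to 6.70 CPM in the sTREM-1 libraries, with Mog at 0, and the 6 endothelial and fibroblast markers to 1.54 to 2.19 and 1.47 to 1.78 CPM, with Cldn5 and Dcn at 0. No gene of these 4 lists was called.

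Compared with the CON group, Igf1, Gab1 and Igf1r were higher after sTREM-1 and Igf2r was lower, while Insr, Irs1, Irs2, Grb10, Gab2 and Gab3 did not pass the test. The changes were small, from 1.24-fold for Igf1 to 0.902-fold for Igf2r. The threshold was an adjusted p of 0.05 by the edgeR quasi-likelihood method, where the Benjamini-Hochberg adjustment ran over all 14120 genes. By this rule 4 of the 10 genes were called, beside 30.5% of all genes tested. The 3 higher genes stood beside a background of 16.5% and the 1 lower gene beside 14.1%, and with 10 genes these shares are too coarse to be told from the background. The median log2 fold change of the 10 genes was 0.002, against -0.002 over all genes, and their median absolute log2 fold change was 0.197 against 0.127.

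**Figure D1:**
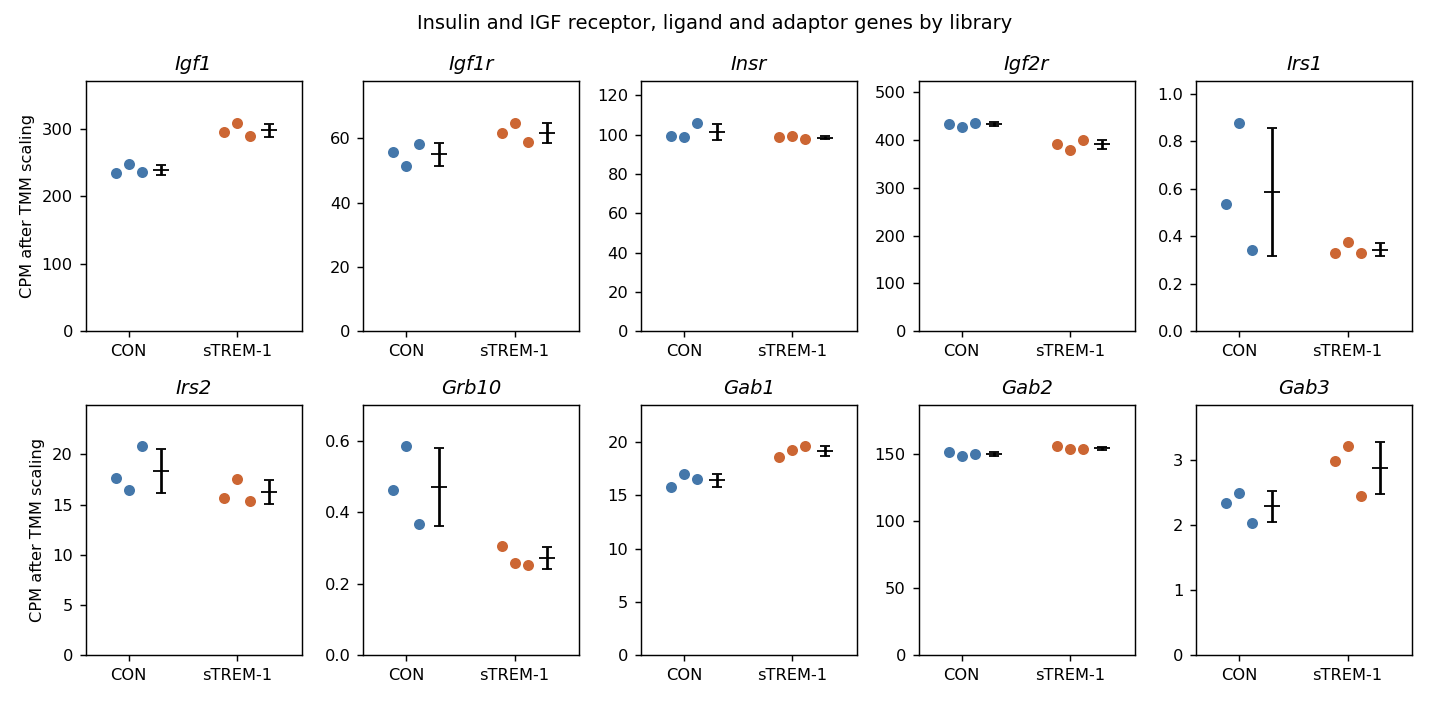
CPM after TMM scaling of each of the 10 genes (vertical axes from 0) in the 3 CON and the 3 sTREM-1 libraries. Points are libraries in the order of their numbers, and the black mark with bars is the mean ± SD. The 3 sTREM-1 libraries of Igf1 sit between 290 and 309 CPM, above the CON libraries at 234 to 248 CPM.

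Igf1, which encodes the growth factor ligand, lies on chromosome 10 of GRCm38 from 87858265 to 87937042. It had 234, 248 and 236 CPM in the CON libraries and 295, 309 and 290 CPM in the sTREM-1 libraries. Every sTREM-1 library was above every CON library, and the gap between the groups was wider than the range within either. Its mean increased from 239 ± 7.74 to 298 ± 9.76 CPM (SD, n = 3 each), with a log2 fold change of 0.32 (SE 0.03, edgeR adjusted p = 2.8e-10). Of the 10 genes, Igf1 had the smallest adjusted p-value, and 81.4% of all genes tested had a smaller absolute log2 fold change. The log2 fold change ran from 0.29 to 0.34 over the 14 alternatives, and the call was kept in each. The antisense gene Igf1os, which lies opposite to Igf1 without shared exon bases, had 8 to 20 counts per library, against 9589 to 13495 for Igf1.

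The other IGF and insulin ligands were at or near the detection limit. Ins1 and Ins2, the mouse insulin genes, had 0 counts in all 6 libraries, and Igf2 had 1 count in total. A count of 0 allows up to 3 counts per library, or 0.0657 to 0.0756 CPM, by counting error only. Within each library, the level of Igf1 per kb of exon was 6.87 to 8.22 times that of its receptor gene Igf1r in the CON group and 8.08 to 8.37 times in the sTREM-1 group, and these ranges overlapped.

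The RefSeq promoter window of Igf1 (250 bases before to 50 after the transcript start, GRCm38.p6) is shown with those of Igf1r and Igf2r, since these 3 genes carry the called ligand and receptor changes. Capitals mark the E-box CACGTG and the GC box GGGCGG, searched on both strands, and the Igf1 window held neither.
Igf1 promoter, chr10:87860861-87861160, plus strand: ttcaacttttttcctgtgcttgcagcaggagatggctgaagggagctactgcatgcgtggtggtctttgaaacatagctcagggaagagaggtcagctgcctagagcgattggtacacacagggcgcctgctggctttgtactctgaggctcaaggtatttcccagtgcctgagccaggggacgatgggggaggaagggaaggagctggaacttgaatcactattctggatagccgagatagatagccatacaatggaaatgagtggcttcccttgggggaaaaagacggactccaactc
Igf1r promoter, chr7:67952007-67952306, plus strand: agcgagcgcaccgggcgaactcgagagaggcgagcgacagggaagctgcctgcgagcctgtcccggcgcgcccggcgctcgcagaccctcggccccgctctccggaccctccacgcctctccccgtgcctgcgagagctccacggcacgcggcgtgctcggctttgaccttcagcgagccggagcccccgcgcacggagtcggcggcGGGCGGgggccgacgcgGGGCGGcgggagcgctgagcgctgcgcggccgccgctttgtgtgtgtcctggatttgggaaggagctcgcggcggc
Igf2r promoter, chr17:12769657-12769956, minus strand: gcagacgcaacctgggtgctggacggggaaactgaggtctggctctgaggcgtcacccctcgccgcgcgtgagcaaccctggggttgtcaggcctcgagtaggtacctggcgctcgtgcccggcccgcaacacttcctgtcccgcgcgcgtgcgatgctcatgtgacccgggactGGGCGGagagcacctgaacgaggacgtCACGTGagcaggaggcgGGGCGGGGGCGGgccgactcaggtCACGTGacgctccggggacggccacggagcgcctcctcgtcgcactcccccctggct
The Igf1 window had 52.3% GC and 6 CpG dinucleotides, close to the medians of all 32851 RefSeq windows, which were 52.7% and 7. It lies inside the GENCODE locus of Igf1, which begins upstream of it at 87858265 and has 8 annotated transcripts. Sequence around starts farther upstream was not examined, so the missing motifs hold for this window only. The Igf1r window had 76.0% GC and 48 CpG, and the Igf2r window 70.7% GC and 34 CpG. The Igf1r window held 2 GC boxes and the Igf2r window 3, which overlap no E-box. The 2 E-boxes of Igf2r begin 48 and 7 bases before the start. An E-box was found in 7.15% of all windows and a GC box in 35.7%. No TATA box (TATAAA) was found in these letters for any of the 7 members that had a window, while 13.6% of all windows held one.

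Among the receptor genes, Igf1r was higher, Insr did not pass the test and Igf2r was lower after sTREM-1. Igf1r, the receptor tyrosine kinase for IGF1, lies on chromosome 7 from 67952827 to 68233668. It had 55.6, 51.2 and 58.2 CPM in the CON libraries and 61.6, 64.8 and 58.7 CPM in the sTREM-1 libraries. The groups did not overlap, but the highest CON library and the lowest sTREM-1 library nearly met. The mean was 55.0 ± 3.53 and 61.7 ± 3.06 CPM (SD, n = 3 each), which is a log2 fold change of 0.17 (SE 0.05, edgeR adjusted p = 0.00587). Without CON replicate 2 the log2 fold change was 0.12 (edgeR adjusted p = 0.0685), and without sTREM-1 replicate 2 it was 0.13 (edgeR adjusted p = 0.0548), so the call was lost without either library.

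Insr, the insulin receptor gene on chromosome 8 from 3122061 to 3279617, had 99.1, 98.5 and 106 CPM in the CON libraries and 98.6, 99.1 and 97.6 CPM in the sTREM-1 libraries. The groups overlapped, and CON replicate 3 stood above the other libraries. The log2 fold change was -0.04 (95% interval -0.11 to 0.03, edgeR adjusted p = 0.401), so that changes from 0.925-fold to 1.02-fold lay within the interval. The ratio of Igf1r to Insr per kb of exon was 0.459, 0.426 and 0.448 in the CON libraries and 0.512, 0.535 and 0.492 in the sTREM-1 libraries. The ratio was therefore higher in each sTREM-1 library, with means of 0.444 ± 0.0171 and 0.513 ± 0.0216 (SD, n = 3 each), and Insr remained the more abundant per kb throughout. This ratio was chosen after the values had been seen and is given as a description.

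Igf2r, the receptor for IGF2 and mannose 6-phosphate, lies on chromosome 17 from 12682406 to 12769664. It had 434, 428 and 436 CPM in the CON libraries and 392, 380 and 400 CPM in the sTREM-1 libraries. All sTREM-1 libraries were below all CON libraries. The mean decreased from 433 ± 4.08 to 390 ± 10.2 CPM (SD, n = 3 each), which is a log2 fold change of -0.15 (SE 0.02, edgeR adjusted p = 1.4e-05). The call was kept in all 14 alternatives, with log2 fold changes from -0.17 to -0.13. Airn, the antisense gene that starts within Igf2r and is known for its part in imprinting, shares no exon bases with it and had 158 to 220 counts per library, against 15864 to 17903 for Igf2r. The strand setting of the counting is not given in the sources used here. Per kb of exon, Igf2r stood 13.5 to 15.1 times above Igf1r in the CON libraries and 10.6 to 12.3 times above it in the sTREM-1 libraries, given as a description, since the levels of both genes fix its direction.

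**Figure D2:**
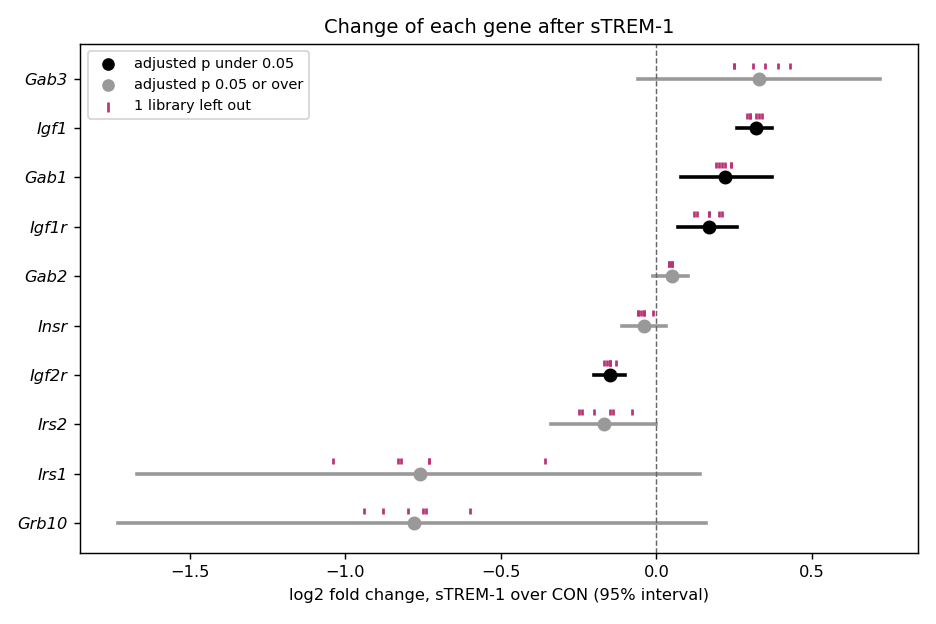
Log2 fold change of each gene, sTREM-1 over CON (horizontal axis), with its 95% interval from the edgeR quasi-likelihood fit. Black marks genes with an adjusted p-value under 0.05, grey the others, and short ticks the 6 fits that each left out 1 library. The widest intervals are those of Irs1 and Grb10, from -1.67 to 0.14 and from -1.73 to 0.16.

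The docking genes of the IRS family were represented almost entirely by Irs2. Irs2, which couples the receptors to PI3K and lies on chromosome 8 from 10984681 to 11008458, had 17.7, 16.5 and 20.8 CPM in the CON libraries and 15.7, 17.6 and 15.4 CPM in the sTREM-1 libraries. The groups overlapped, with CON replicate 2 among the sTREM-1 values. The log2 fold change was -0.17 (95% interval -0.34 to 0.00, edgeR unadjusted p = 0.0443), and it did not pass after adjustment (edgeR adjusted p = 0.117). Without CON replicate 2 the value was -0.25 (edgeR adjusted p = 0.0357), and without sTREM-1 replicate 2 it was -0.24 (edgeR adjusted p = 0.0489), so that a call would appear without either library. These are the same libraries without which the call of Igf1r was lost. CON replicate 2 had the lowest and sTREM-1 replicate 2 the highest level of their groups for both genes.

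Irs1, on chromosome 1 from 82233101 to 82291416, was counted 22, 36 and 14 times in the CON group and 15, 16 and 13 times in the sTREM-1 group. Its log2 fold change of -0.76 (95% interval -1.67 to 0.14, edgeR adjusted p = 0.211) did not pass, and a decrease or a small increase cannot be told from no change at this depth. CON replicate 2 held the highest count, and without it the log2 fold change was -0.36. An annotated gene on the opposite strand, Gm9747, shares 2822 exon bases with Irs1 and was not analysed here. Per kb of exon, Irs2 stood 27.2 to 87.6 times above Irs1 in the CON libraries and 67.8 to 68.9 times above it in the sTREM-1 libraries. These ratios are given as a description. They rest on the few counts of Irs1 listed above, so the narrow range in the sTREM-1 group is no measure of precision. Irs3 and Irs4, the other genes of the family, had 0 counts in all libraries.

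The Irs1, Irs2 and Gab1 promoter windows were the ones that held the core CAAAACA, or TGTTTTG on the other strand, of the insulin response element. Stretches of 60 bases around it are shown for these docking genes. Insr, Gab2 and Gab3 had no window, so whether the other GAB genes share the core is not known. Capitals mark this core and the E-box CACGTG. The stretches read along the gene's strand in GRCm38.p6.
Irs1, chr1:82291517-82291576, minus strand: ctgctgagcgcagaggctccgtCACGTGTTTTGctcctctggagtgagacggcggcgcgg
Irs2, chr8:11008933-11008992, minus strand: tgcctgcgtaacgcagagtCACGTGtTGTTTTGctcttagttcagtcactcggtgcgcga
Gab1, chr8:80880487-80880546, minus strand: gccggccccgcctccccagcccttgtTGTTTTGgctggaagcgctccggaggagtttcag
In Irs1 the E-box and the core overlap by 2 bases, and in Irs2 they are 1 base apart. The core begins 111 bases before the start in Irs1, with a second match 32 bases before it, and 37 bases before the start in Irs2. The core was found in 4 of the 9 windows of the members, which include 2 overlapping windows of Gab1, and in 6.28% of all windows. The letters GTAAACA, a form of the FOXO site, and TGACGTCA, the cyclic AMP response element, had no match in the 9 windows. They were found in 3.65% and 1.79% of all windows. Only these exact letters were searched for, so the windows are not shown to lack FOXO sites. These motifs were chosen after the sequences had been read, and a match is no evidence of binding.

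Grb10, the imprinted gene of an adaptor that binds and restrains both receptors, lies on chromosome 11 from 11930508 to 12038683. Its counts were 19, 24 and 15 in the CON group and 14, 11 and 10 in the sTREM-1 group. In CPM all sTREM-1 libraries, at 0.252 to 0.306, were below all CON libraries, at 0.367 to 0.585. The log2 fold change of -0.78 nevertheless did not pass (95% interval -1.73 to 0.16, edgeR adjusted p = 0.219), since counts this low leave a wide interval. It ran from -0.94 to -0.60 when single libraries were left out. Grb7 and Grb14, the other genes of this adaptor family, had 0 counts in all libraries.

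In the GAB family Gab1 was called higher, while Gab2 and Gab3 did not pass the test; differences between these genes were not tested. Gab1, a docking platform for PI3K and the phosphatase SHP2 on chromosome 8 from 80764438 to 80880519, had 15.8, 17.0 and 16.5 CPM in the CON libraries and 18.6, 19.3 and 19.6 CPM in the sTREM-1 libraries. The groups did not overlap. The mean was 16.5 ± 0.599 and 19.2 ± 0.473 CPM (SD, n = 3 each), which is a log2 fold change of 0.22 (SE 0.07, edgeR adjusted p = 0.0173). Without CON replicate 1 it was 0.19 (edgeR adjusted p = 0.0899) and without sTREM-1 replicate 3 it was 0.20 (edgeR adjusted p = 0.0505), so the call was lost without either library. The estimate ran from 0.19 to 0.24 when single libraries were left out, and the part of fewer samples in these losses was not tested. The opposite-strand gene Gm31105 shares 266 exon bases with Gab1 and had 2 to 25 counts per library, against 648 to 852 for Gab1.

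Gab2, the GAB gene known from mast cell and macrophage signaling, lies on chromosome 7 from 97081586 to 97308946 and was the most abundant of the family. It had 152, 149 and 150 CPM in the CON libraries and 156, 154 and 154 CPM in the sTREM-1 libraries. The groups did not overlap, yet the change was 3.22% and did not pass the test (log2 fold change 0.05, 95% interval -0.01 to 0.10, edgeR adjusted p = 0.24). The interval held changes from 0.992-fold to 1.07-fold. Gab3, on chromosome X from 74966843 to 75085458, had 2.34, 2.49 and 2.03 CPM in the CON libraries and 2.98, 3.21 and 2.44 CPM in the sTREM-1 libraries. Its groups overlapped at the lowest sTREM-1 library, and the log2 fold change of 0.33 did not pass (95% interval -0.06 to 0.72, edgeR adjusted p = 0.203). Its point estimate was as large as that of Igf1, with a standard error of 0.19 against 0.03. Gab1 per kb of exon was 0.127 to 0.139 of Gab2 in the CON libraries and 0.145 to 0.154 in the sTREM-1 libraries, and these ranges did not overlap. Gab3 per kb of exon was 0.0215 to 0.0265 of Gab2 in the CON libraries and 0.0251 to 0.0331 in the sTREM-1 libraries, which overlapped. These ratios, too, are descriptions chosen after the values had been seen.

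Counting all 10 genes, the groups did not overlap for 6 (Igf1, Igf1r, Gab1 and Gab2 above, Igf2r and Grb10 below), beside 40.7% of all genes tested.

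**Figure D3:**
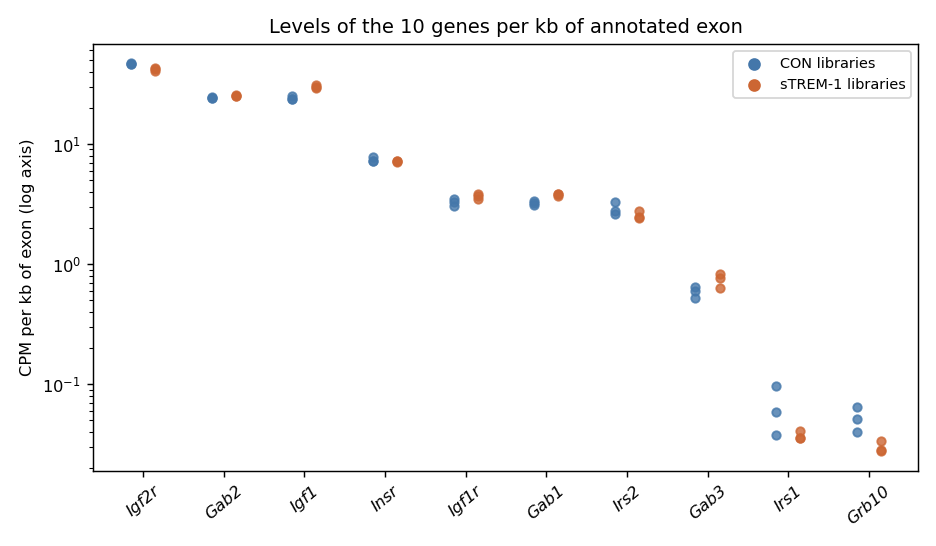
Level of each gene as CPM per kb of annotated exon (vertical log axis) in the CON and sTREM-1 libraries, ordered by the CON mean. Igf2r stands at 46.5 and Grb10 at 0.0519 on average in the CON group.

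To compare levels between genes, CPM were divided by the length of all annotated exons of GENCODE M21. In the CON group Igf2r was the most abundant at 46.5 ± 0.439 CPM per kb, followed by Gab2 at 24.3 ± 0.231 and Igf1 at 24.2 ± 0.782 (SD, n = 3 each), whose libraries overlapped. In the sTREM-1 group Igf1 stood at 30.1 ± 0.986 and Gab2 at 25.1 ± 0.210 CPM per kb, and their libraries no longer overlapped. Insr followed at 7.37 ± 0.321 CPM per kb in the CON group. Igf1r at 3.28 ± 0.210, Gab1 at 3.24 ± 0.118 and Irs2 at 2.89 ± 0.351 CPM per kb came next, and neighbours in this order did not differ beyond their spread. In the sTREM-1 group Igf1r and Gab1, at 3.68 ± 0.182 and 3.77 ± 0.0930 CPM per kb, again overlapped, and Irs2 at 2.56 ± 0.190 stood below them. Gab3 stood at 0.588 ± 0.0596 CPM per kb in the CON group, and Irs1 and Grb10 stood lowest, at 0.0641 ± 0.0296 and 0.0519 ± 0.0120 CPM per kb, with overlapping CON libraries. Divided by the longest transcript instead, Igf1 stood above Gab2 in the CON group as well, at 33.9 against 24.3 CPM per kb, and Grb10 above Irs1. By that measure Igf1r also stood farther above Gab1, at 4.82 against 3.3 CPM per kb in the CON group. In the sTREM-1 group it stood at 5.41 against 3.85, so the closeness of Igf1r and Gab1 depended on the length used.

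Genes whose log2 CPM followed the 6 libraries most closely were sought for the called genes of smallest p-value in each direction. For Igf1 these were Tnip3, Lpl and Bnip3, with Pearson's r of 0.9989, 0.9989 and 0.9987 over 6 libraries, and 55 genes had an r above 0.99. For Igf2r they were Gm32031, Fabp4 and Atp13a4, with an r of 0.9984, 0.9982 and 0.9968, among 26 genes above 0.99. The libraries share the group difference, and the values describe only this likeness.

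The wider pathway was read from 5 lists with 96 genes, of which 77 were tested. Of these, 19 were higher and 12 lower at an adjusted p-value under 0.05, beside the background of 30.5% in either direction. Over all genes tested, 16.5% were called higher and 14.1% lower. The counts of each list below are to be read beside these shares, and no list was tested as a set. The median log2 fold change of the 77 genes was 0.021 and their median absolute value 0.105, below that of all genes. The ligand and binding protein list had 15 genes, of which 5 were tested and 1 was called. This gene was Pappa2, a protease that cleaves IGF-binding proteins, with 4.98, 4.34 and 5.0 CPM in the CON libraries and 2.56, 1.83 and 2.95 CPM in the sTREM-1 libraries. It fell to 0.512-fold (log2 fold change -0.97, standard error 0.17, edgeR adjusted p = 4.7e-05), and every sTREM-1 library was below every CON library. Igfbp1, Igfbp3, Igfals and Pappa had 0 counts, and Igfbp4, the most abundant binding protein gene, stood at 9.65 ± 0.350 and 10.4 ± 1.06 CPM (SD, n = 3 each) without passing the test (edgeR adjusted p = 0.433).

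**Figure D4:**
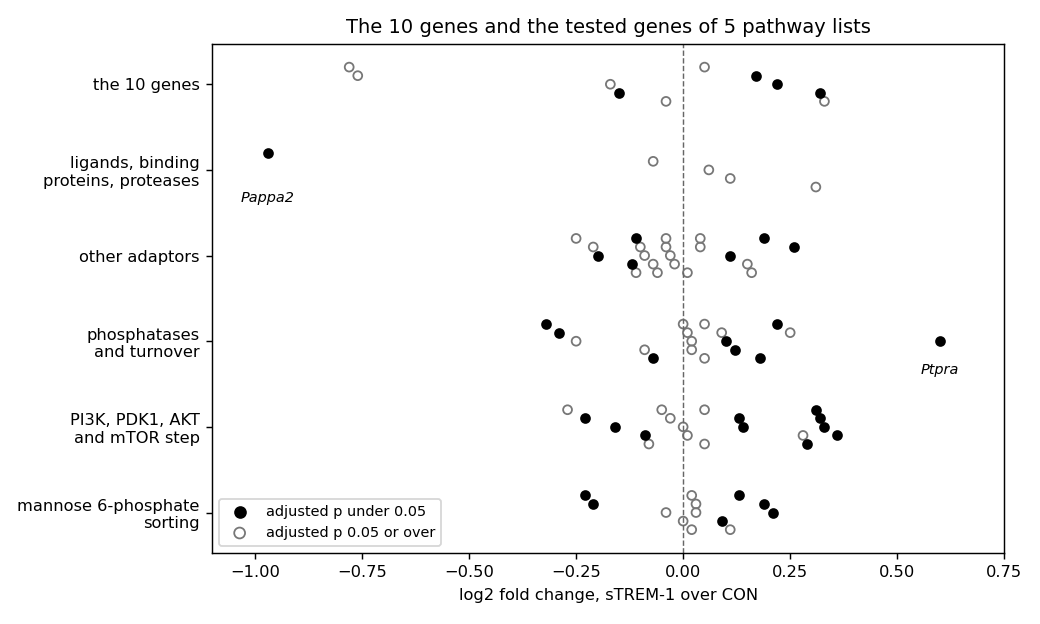
Log2 fold change, sTREM-1 over CON (horizontal axis), of the 10 genes and of the tested genes in 5 pathway lists (rows). Filled points have an adjusted p-value under 0.05 and open points do not, and vertical offsets within a row only separate points. Pappa2 at -0.97 and Ptpra at 0.60 lie farthest from 0 among the called genes.

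Of 22 tested genes for other receptor-proximal adaptors, 3 were higher and 3 lower. Grb2, which links docked receptors to the RAS exchange factor SOS, stood at 138 ± 0.238 CPM in the CON and 165 ± 6.22 CPM in the sTREM-1 group (SD, n = 3 each) and was higher by 0.26 on the log2 scale (edgeR adjusted p = 4.3e-08), while Sos2, a gene for such an exchange factor, had a log2 fold change of -0.12. Sh2b2 and Cbl were higher, with log2 fold changes of 0.19 and 0.11, and Crkl was lower, with -0.11. Without sTREM-1 replicate 2 the call of Sh2b2 was lost (edgeR adjusted p = 0.0636).

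Of 18 tested genes for phosphatases and turnover at the receptor and IRS step, 5 were higher and 3 lower. Ptpra, a receptor-type tyrosine phosphatase, had 62.3, 64.2 and 61.3 CPM in the CON libraries and 94.8, 96.9 and 92.6 CPM in the sTREM-1 libraries, a log2 fold change of 0.60 (SE 0.04, edgeR adjusted p = 7.9e-14). Its groups were far apart compared with their spread. Inppl1, which encodes a lipid phosphatase that acts on the product of PI3K, was higher with a log2 fold change of 0.22. Phlpp2, for an AKT phosphatase, and Socs7 were lower with -0.32 and -0.29. Ptpn11, the gene of SHP2, was called lower at -0.07, and lost its call in 6 of 14 alternatives, 5 of which left out 1 library (CON replicate 1, 2 or 3 or sTREM-1 replicate 1 or 2, edgeR adjusted p from 0.0703 to 0.111). Nedd4, a ubiquitin ligase gene of this list that most cells express, was listed at 0 in all 6 libraries.

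Of the 19 genes of the PI3K, PDK1, AKT and mTOR step, all tested, 7 were higher and 3 lower, and their median log2 fold change was 0.046. Akt2, the AKT gene best known for insulin action, had 32.6, 31.9 and 31.8 CPM in the CON libraries and 39.9, 41.2 and 42.5 CPM in the sTREM-1 libraries, a log2 fold change of 0.36 (SE 0.05, edgeR adjusted p = 6.7e-07). Pik3cg and Pik3r6, which encode the catalytic and an adaptor subunit of the PI3K form that works below G protein-coupled receptors, had log2 fold changes of 0.32 and 0.33. Pik3r1, the gene of a regulatory subunit that docks on IRS proteins, was lower with -0.16. Pik3r2, for another regulatory subunit, was higher with a log2 fold change of 0.31 (edgeR adjusted p = 2.9e-06). Pik3r3, for a further one, did not pass the test (log2 fold change -0.27, edgeR adjusted p = 0.174). Foxo1, a transcription factor that AKT restrains, was lower with -0.23.

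The mannose 6-phosphate sorting genes, which share the lysosomal route of Igf2r, did not move in 1 direction. Of 13 tested genes, 4 were higher and 2 lower. M6pr, the other mannose 6-phosphate receptor, had 300, 293 and 304 CPM in the CON libraries and 350, 336 and 340 CPM in the sTREM-1 libraries, a log2 fold change of 0.19 (SE 0.02, edgeR adjusted p = 3.9e-07), against -0.15 for Igf2r. Snx2, a sorting nexin gene, had a log2 fold change of 0.21 and Ap1m1, for a clathrin adaptor subunit, 0.13, while Vps29 of the retromer had -0.21 and Gnptg, for a subunit of the enzyme that makes the tag, -0.23. Without CON replicate 1, 3 genes of this list were called, and the calls of Gnptg (edgeR adjusted p = 0.0624) and Ap1m1 (edgeR adjusted p = 0.0555) were among those lost. Ap1m1 also lost its call without CON replicate 3 and without sTREM-1 replicate 2 or 3 (edgeR adjusted p from 0.0625 to 0.0801).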

How the data were processed

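The authors deposited unnormalized counts, as whole numbers for each gene symbol and library. The paper's methods name RSEM, FPKM values and edgeR, while the submitters' processing notes list HISAT2 2.0.4 and the human builds hg19 and GRCh38, although the symbols are mouse. The mouse build, annotation and strand setting are not given in the sources used here, so overlapping, antisense or near-identical genes may share or lose reads. The methods give n = 4 and the labels 3 libraries per group.

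In R 4.3.3, edgeR 4.0.16 applied filterByExpr (minimum count 10), TMM scaling and its quasi-likelihood F test without covariates. SE values derive from that F statistic, intervals are 95%, and log2 CPM used a prior count of 2. Depth was 40070633 to 45877107 counts. Counting error weighs most on rare genes, but is also part of the spread of genes such as Gab1, with 648 to 852 counts per library. Libraries of 1 group differed by a chi-square per gene of 3.40 to 4.82, more than sampling noise.

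Members and lists were chosen with earlier results of these data known. Named genes are all members, up to 3 called genes per direction and pathway list (groups not overlapping, by size of change), and the 3 genes most correlated with the called member of smallest p-value in each direction. Others were named after their values were seen. Some genes that this rule selects are left out of the text. Loci come from GENCODE M21 (GRCm38) and promoters from RefSeq (GRCm38.p6), for 7 of 10 members. The procedure was tested on simulated data. Alternatives were RLE, no filter, at least 10 counts in every library, DESeq2 1.42.0, the exact test of edgeR, a block for replicate number, a loess correction for GC content and length (span 0.3, values for 90.6% of tested genes) with and without that block, an unadjusted threshold, and leaving out each library.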

Additional observations from a re-analysis of the deposited data

How the results depend on the processing

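Of the 10 members, 4 were called under RLE size factors, both other filters, DESeq2, edgeR's exact test, the GC content and length correction and the replicate block, and 5 at an unadjusted p-value under 0.05, of which 2 were lower. With 1 library left out, 3 to 4 were called, with 2 to 3 higher and 1 to 2 lower (2 without CON replicate 2 or sTREM-1 replicate 2, where Irs2 passed). No member changed direction in the 14 alternatives, nor did any pathway gene named by the rule given above. The genes called in the 5 pathway lists numbered 31, 26 to 30 with 1 library left out (26 without CON replicate 1) and 37 with the replicate block. Over all genes 4312 were called, 4613 with the replicate block and 3608 to 3863 with 1 library left out. Deviations of same-numbered libraries correlated at -0.033 to -0.014, and the block changed no call of a member. Of the pathway genes named in the text as called, Ptpn11, Ap1m1, Sh2b2 and Gnptg lost the call in at least 1 alternative. The others kept it in each, except that Pik3r2 was not followed there. The ligand list had 2 called genes without sTREM-1 replicate 3 and with the GC content and length correction with the replicate block, against 1. For the calls lost on leaving out a library, the cause beyond fewer samples was not tested. DESeq2 gave no adjusted p for Irs1 and Grb10. Depth limits these genes, whose intervals reach from -1.67 to 0.14 and from -1.73 to 0.16 on the log2 scale.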
